A study of Mus musculus with 9 samples.

Results

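BV2 is an immortalised mouse microglial line, described in the labels as brain-derived microglia of wild-type genotype, and the control libraries of a series on siRNA transfection of these cells are described here. They were chosen by title, as the libraries labelled NC, and make up 3 of the 9 libraries of the series. No value from the other 6 was used. The labels describe 1 protocol for the series: siRNA with RNAiMAX for 24 h, then fresh DMEM with 10% fetal bovine serum for 24 h, 48 h in all. The labels do not say what the control received, so these cells stand for the control state of a transfection experiment and not for untouched cultures. RNA was taken with TRIzol, and 2 µg of total RNA went into each mRNA library. Replicates are labelled biological, without a statement that they came from separate cultures, so the spread given below may be partly technical. A cell line is a single immortalised population kept in serum, which limits it as a model of microglia in the brain.

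Microglia are the resident macrophages of the brain and spinal cord. They depend on signalling through the receptor CSF1R and on the transcription factor PU.1, encoded by Spi1, for their survival and identity. In brain tissue they carry a set of surface receptors and regulators, such as P2RY12, TMEM119 and SALL1, that separates them from other macrophages, and this set is known to fall when microglia are taken into culture. BV2 cells were immortalised with a retrovirus carrying oncogenes, and they divide continuously.

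Library totals were 20029103, 20224707 and 20007603 estimated counts over 16398 protein-coding genes, with none from the mitochondrial genome. Levels are given as FPKM, fragment counts scaled by transcript length and by library total, as mean ± SD over 3 libraries unless each library is named. An FPKM of 1 in every library was met by 10070 genes, 61.4% of the table, and such genes count as present below. For gene lists, the number present is given out of members with a row, and listed genes without a row are left out. Of 874 genes in a list, 835 had a row. The median over all genes of the table was 4.59 FPKM. Another 1131 genes had no count in any of the 3 libraries, which allows a level of up to 0.0498 CPM (counts scaled to a common library total) over the group for each of them. The remaining low genes spread over a wide shoulder, since 314 genes had libraries on both sides of 1 FPKM and 4980 had a mean above 0 and below 1. At the other end, 93 genes with a mean of 1000 FPKM or more held 32.7% of all FPKM, and the 820 genes between 100 and 1000 held 34.6%. The 100 highest genes held 33.9 ± 1.01% of FPKM, and the 291 highest held 50.03% of the mean FPKM. Library 2 stood apart from libraries 1 and 3, higher in short transcripts and lower in long ones. Without it 10154 genes were present, the 100 highest genes held 33.3% of FPKM, 29 of the 30 highest genes stayed in that group and the count of microglia identity genes present was 33, as with it.

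**Figure D1:**
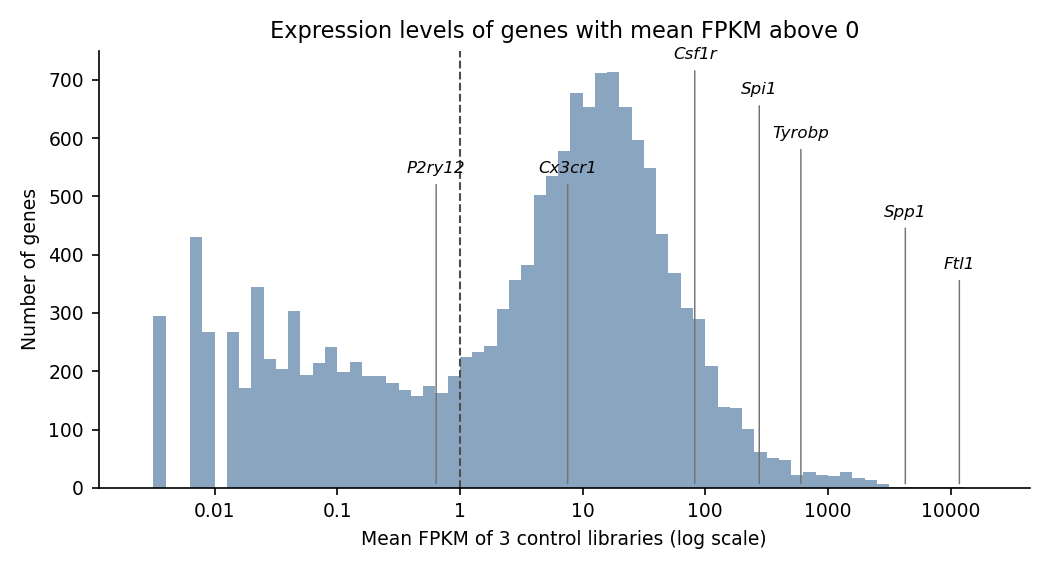
Number of genes (y axis) by mean FPKM of the 3 control libraries (x axis, log scale), for genes with a mean above 0. The dashed line marks 1 FPKM, and named lines mark the 4 marker genes, P2ry12, Spp1 and Ftl1, which run from 0.640 for P2ry12 to 11786 for Ftl1.

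The 4 genes taken here as microglial markers were all present, at levels far apart. They are not among the genes named above, P2ry12, Tmem119 and Sall1, as separating microglia from other macrophages. Tyrobp, encoding the adaptor DAP12 that signals for TREM2 and other receptors, was at 559, 658 and 588 FPKM in libraries 1, 2 and 3, rank 150 among all genes. Spi1 was at 258, 309 and 260 FPKM, rank 296. Both were highest in library 2, and their ranges did not overlap. Csf1r, the receptor for CSF1 and IL-34, was at 80.5, 81.4 and 84.3 FPKM, rank 1162. Cx3cr1, the fractalkine receptor, was at 8.27, 6.58 and 7.81 FPKM, rank 7002. That order, Tyrobp, Spi1, Csf1r, Cx3cr1, was the same in each library. Each marker overlapped in its range with the 2 genes next above and the 2 next below it in mean FPKM. For Tyrobp these were Tpm3, Ybx1, Lgmn and Rpl15, between 598.5 and 614.5 FPKM, and for Spi1 they were Hax1, Hspa9, Vdac2 and Ppp1ca, between 274.8 and 278.5. For Csf1r they were Rab1a, Cenpv, Aplp2 and Trpc4ap, between 81.8 and 82.1 FPKM, and for Cx3cr1 they were Vps54, Rabep2, Ate1 and Tifab, at 7.55 to 7.56. In the table's coordinates Tyrobp lies at chr7:30413782-30417582, Spi1 at chr2:91082368-91115759, Csf1r at chr18:61105572-61131139 and Cx3cr1 at chr9:120048683-120068296. The processing notes name mm39, while the positions of 73.7% of the genes matched by NCBI gene ID are those of RefSeq for GRCm38.p6, so these positions are the table's own.

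Of 45 microglia identity genes, 44 had a row and 33 were present, with a median of 16.4 FPKM over the 44. Upk1b was not analysed here. The highest was Cd68, a lysosomal membrane glycoprotein of macrophages, at 1348, 1409 and 1399 FPKM. Cst3, encoding the protease inhibitor cystatin C, followed at 779, 962 and 806 FPKM. Ctss, encoding the lysosomal protease cathepsin S, was at 330, 324 and 330 FPKM, and Trem2, a lipid-sensing receptor, at 232, 261 and 214. In all, 7 identity genes exceeded 100 FPKM, Tyrobp and Spi1 among them.

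A middle group lay between 10 and 100 FPKM. It included Selplg (77.3 ± 3.20), Bin1 (75.6 ± 5.60), Rnase4 (44.1 ± 1.62), Irf8 (41.1 ± 1.47), Cd33 (30.7 ± 4.13) and Ptprc (29.8 ± 3.99), beside Csf1r. Irf8 encodes a transcription factor of monocytes, macrophages and microglia, and Ptprc encodes CD45, the pan-leukocyte phosphatase. Itgb5 (29.4 ± 1.91), Ltc4s (29.0 ± 5.63), Itgam (28.0 ± 2.60), Golm1 (23.6 ± 0.906), Hpgds (20.9 ± 0.809), Mef2c (19.1 ± 2.60) and Entpd1 (18.1 ± 0.592) followed. Itgam encodes CD11b, and Entpd1 encodes CD39, which breaks down extracellular ATP. Ikzf1 (14.7 ± 1.81), Aif1 (11.04 ± 1.21) and Tgfbr2 (10.4 ± 0.316) closed the group. Aif1 encodes IBA1, the calcium-binding protein stained to show microglia in tissue, and its 3 values were 10.4, 12.4 and 10.3 FPKM. Below 10 FPKM but present were Maf (8.43 ± 0.584), Cx3cr1, Runx1 (7.16 ± 0.180), Sall3 (3.94 ± 0.252), Tgfbr1 (3.11 ± 0.249) and Adgrg1 (2.43 ± 0.329). Tmem119 was just above the threshold, with 1.21, 1.22 and 1.23 FPKM from 52, 52 and 53 counts. P2ry13, an ADP receptor, was also just above it at 1.11, 1.14 and 1.35 FPKM.

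Below the threshold were 11 identity genes, among them several that are known to set microglia apart from other macrophages. P2ry12, the ADP receptor of ramified microglia, was at 0.73, 0.50 and 0.69 FPKM, from 34, 24 and 33 counts. All 3 libraries held reads of it, below 1 FPKM in each. Fcrls, an Fc receptor-like gene, was at 0.690 FPKM in every library. Gpr34, Slc2a5, Olfml3, Lag3 and Crybb1 had means from 0.203 to 0.373 FPKM. Sparc, Siglech and Slco2b1 had means from 0.0233 to 0.0733 FPKM, with no more than 7 counts in any library. Sall1, the zinc-finger repressor that maintains microglial identity in the brain, had 1 count in library 2 and none in libraries 1 and 3. That is 0.0166 CPM over the group, with an exact 95% Poisson interval from 4.20e-04 to 0.0925. Its relative Sall3 was detected, at 4.01, 3.66 and 4.15 FPKM. RNA from a whole culture cannot tell fewer expressing cells from less RNA in each cell, and this holds for every level given here.

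**Figure D2:**
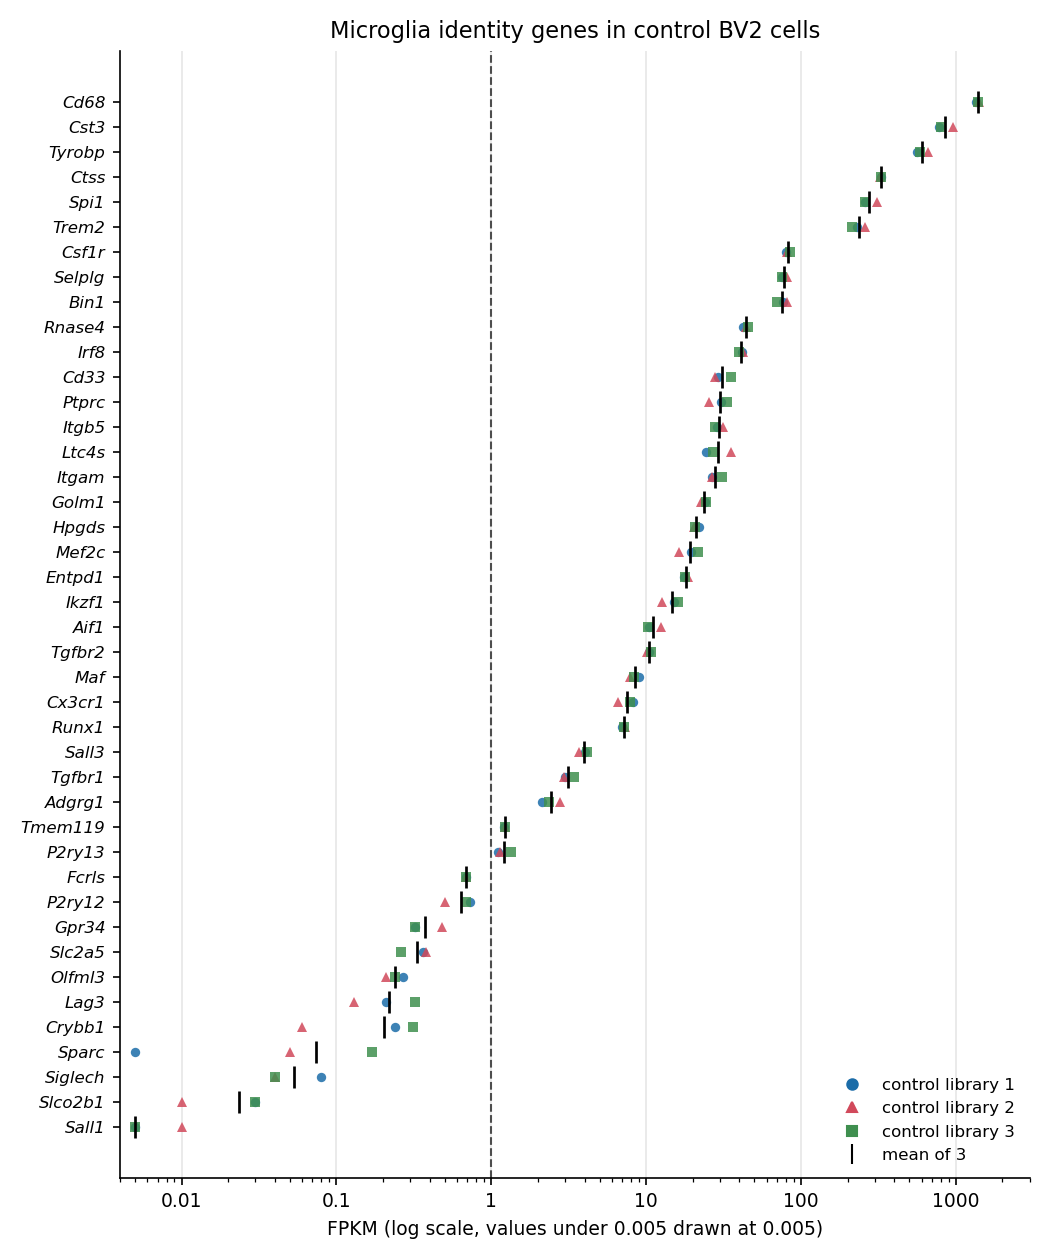
FPKM of 42 of the 44 microglia identity genes (x axis, log scale) in control libraries 1 to 3 (coloured points), ordered by mean (black bar), with values under 0.005 drawn at 0.005. The dashed line marks 1 FPKM, with 31 of the plotted genes above it in every library and 11 below it, from Fcrls at 0.690 down to Sall1 at 0.00333.

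Disease-associated microglia genes, the set that brain microglia raise around plaques and damaged myelin, were present in 31 of 31 members with a row. Their median was 338 FPKM, and 20 of the 31 exceeded 100 FPKM. Ftl1 and Fth1, the light and heavy chains of the iron store ferritin, led the list and the whole table. Spp1, encoding the secreted phosphoprotein osteopontin, was at 4300, 4273 and 4244 FPKM, rank 6. Its coefficient of variation of 0.654% was the lowest among the 30 highest genes. B2m (2290 ± 159), Ctsb (1955 ± 80.1) and Lgals1 (1520 ± 122) completed the leading 6. Further members, named after their values were seen, were Gpnmb (1429 ± 13.4), Apoe (1055 ± 146) and Lpl (422 ± 36.3). Gpnmb encodes a membrane glycoprotein of lysosome-rich phagocytes, Apoe a lipid carrier and Lpl lipoprotein lipase. The same list also held low members, namely Axl (2.94 ± 0.345), Clec7a (2.51 ± 0.147) and Atp6v0d2 (1.36 ± 0.0709). Axl encodes a receptor for phosphatidylserine-bound ligand and Clec7a encodes the beta-glucan receptor dectin-1.

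In a list of macrophage genes of other tissues, 12 of 25 were present, a share below the 61.4% of all genes, and the median was 1.05 FPKM. Its members are not all exclusive to such macrophages, and Itgax is also in the disease-associated microglia list. Lyz2, encoding lysozyme, was at 320 ± 17.6 FPKM, Pf4 at 166 ± 19.9 and Fabp4 at 153 ± 11.7. Cd14 (93.7 ± 4.20), Fcgr1 (56.0 ± 3.10) and Adgre1, encoding F4/80 (47.3 ± 4.301), followed. Ccr2, the receptor that draws monocytes out of the blood, had 3, 3 and 2 counts, and Lyve1 and Cd163, markers of border and perivascular macrophages, had means of 0.0133 and 0.0333 FPKM. Not all lower members were absent. Siglec1 (18.9 FPKM), Cbr2 (5.457), Mrc1 (2.63, 2.23 and 2.93) and Stab1 (1.71), named after their values were seen, were present, while 13 of the 25 were below the threshold. Vsig4 had no count.

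Markers of other cell types were at or near 0. Of 62 such genes in 9 lists, 49 had a row and 2 were present. The neuronal list summed to 0.280, 0.190 and 0.330 FPKM in libraries 1 to 3, the astrocyte list to 0.130, 0.120 and 0.220, and the oligodendrocyte list to 1.56, 1.55 and 1.32. Gfap and Aldh1l1 of astrocytes, Cdh5 and Tek of endothelium and Epcam of epithelium had 0 FPKM in all 3 libraries. Flt1, a VEGF receptor best known in endothelium, was the exception at 22.1, 18.3 and 23.2 FPKM, while Pecam1, Kdr and Cldn5 stayed under 0.2 FPKM. Hba-a1, encoding alpha globin, was at 2.64, 2.33 and 3.14 FPKM, and Hbb-bs had a mean of 0.227.

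The most abundant mRNAs were those of iron storage, glycolysis and translation. Ftl1 was at 11475, 13263 and 10621 FPKM and Fth1 at 9632, 10404 and 9265. Together they took 3.73 ± 0.199% of all FPKM, and the ratio of Ftl1 to Fth1 was 1.20 ± 0.0652. Next was Gapdh, the glycolytic dehydrogenase, at 6885, 8079 and 6644 FPKM. Eef1a1, the elongation factor that brings aminoacyl-tRNA to the ribosome, was at 5743, 5715 and 5843, and the enolase gene Eno1 at 5449, 6213 and 5318. Ppia, encoding cyclophilin A, came after Spp1 with 3658 ± 88.7 FPKM. Of the 30 highest genes, 15 encode proteins of the cytosolic ribosome, from Rpl35 at 3061 ± 393 to Rpl28 at 1979 ± 221. The other ribosomal genes of that group were Rpl12, Rpl10, Rps2, Rps26, Rpl23a, Rplp1, Rplp0, Rpl8, Rpl41, Rpl13, Rpl29, Rpsa and Rps18. Among its remaining members were Cfl1 (cofilin, 2322 ± 145), Tuba1b (alpha tubulin, 2262 ± 51.5), the glycolytic genes Pkm (2250 ± 116) and Aldoa (2029 ± 160), and the translation factor gene Eif5a (2099 ± 111), beside B2m and Ctsb. In 27 of the 30 genes library 2 was the highest of the 3 libraries. The exceptions were Eef1a1, Spp1 and B2m. FPKM over all genes also summed higher in library 2, to 601578 against 567094 in library 1 and 562343 in library 3. As a share of each library's sum, Ppia, Rpl23a and Tuba1b were lowest in library 2.

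**Figure D3:**
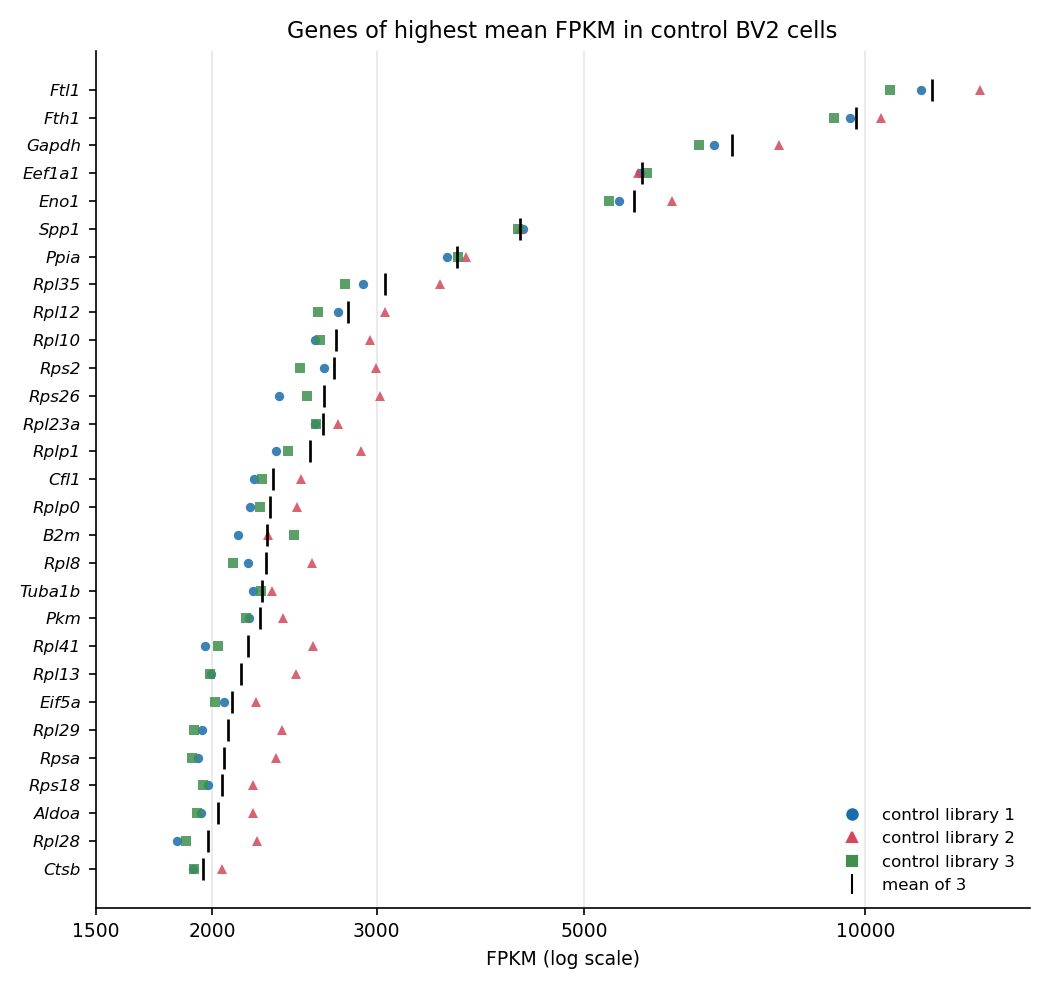
FPKM (x axis, log scale) of 29 of the 30 genes of highest mean FPKM in control libraries 1 to 3 (coloured points), with the mean as a black bar. Ferritin chains Ftl1 and Fth1 lie apart at the top, and library 2 is to the right of the others in 26 of the 29 genes plotted.

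Cytosolic ribosomal protein genes were present in 77 of 81 cases, with a median of 1152 FPKM, and took 16.8, 18.5 and 16.7% of all FPKM in libraries 1 to 3. Rpl3l and Rpl10l, which encode tissue-restricted variants of common subunits, had means of 0.807 and 0.050 FPKM. Rps6 was listed at 28.1, 27.6 and 21.8 FPKM, far below the other small-subunit genes, while Rps6-ps4 was listed at 1771, 1993 and 1735. A processed copy of this kind shares reads with its parent, so the level of Rps6 and of other genes with near-identical copies depends on how reads were assigned. Among translation factors, 25 of 26 were present. The exception was Eef1a2, the form of neurons and muscle, at a mean of 0.0467 FPKM.

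In energy metabolism, 20 of 23 glycolysis genes and 34 of 35 oxidative phosphorylation genes were present, with medians of 85.7 and 205 FPKM. Ldha, encoding the muscle-type lactate dehydrogenase subunit, was at 1633, 1722 and 1619 FPKM. Its heart-type counterpart Ldhb had 2, 3 and 1 counts, or 0.0900, 0.130 and 0.0400 FPKM, and the ranges of both genes were far apart in every library. The enolase pair showed the same split, with the neuronal form Eno2 at 0.040, 0.020 and 0.050 FPKM against 5449, 6213 and 5318 for Eno1. Slc2a3, a glucose transporter, had a mean of 0.683 FPKM. The highest oxidative phosphorylation genes were Atp5b (985 ± 47.2), Cox8a (876 ± 96.3), Cox4i1 (670 ± 58.7), Cox7c (593 ± 57.3), Cox6a1 (519 ± 50.7) and Atp5a1 (426 ± 9.59), all of the ATP synthase or cytochrome c oxidase. Cox4i2, the alternative form of Cox4i1, had a mean of 0.403 FPKM.

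Lysosomal genes were present in 46 of 46 members with a row, with a median of 88.3 FPKM and 22 members above 100. Ctsb, a cysteine cathepsin, led at 1906, 2047 and 1911 FPKM. Cd68 came next, and then Ctsz (1201 ± 95.2), Atp6v0c (1087 ± 65.6, a proton pump subunit), Ctsd (936 ± 16.7, an aspartic cathepsin) and Ctsa (780 ± 54.5). The lowest member was Ctso at 1.82 ± 0.140. The factors known to drive these genes through E-boxes, named after their values were seen, were below the lysosomal median: Tfe3 at 21.2 ± 0.497, Tfeb at 18.8 ± 2.11, Mitf at 4.99 ± 0.561 and Tfec at 0.0867 ± 0.0551 FPKM. Present genes annotated as transcription factors had a median of 6.85 FPKM. Tfe3 and Tfeb were above that median, and Mitf and Tfec below it.

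Promoter windows from RefSeq, build GRCm38.p6, 250 bases before to 50 bases after the annotated start, were searched for the E-box word TCACGTG on both strands. Of the 46 lysosomal genes, 38 had a window and 12 of those, 31.6%, held the word. The share was 4.29% of the 27025 genes with a window and 7.56% of the 8206 present genes with one. The lysosomal list had the highest share of the function lists, and translation factor genes came next, with 5 of 20 (25%). No other whole list was above 13.04%, and some, such as iron handling genes (0 of 20) and antioxidant genes (0 of 24), held none. Of identity genes 3 of 32 held it, 2 of them among the 9 low ones (22.2%). The word was thus most frequent in the lysosomal list but not confined to it. The 12 genes had a median of 74.3 FPKM and the 26 without the word 110 FPKM, so the genes with the word were not the higher ones of the list. The match nearest the start is shown for each of the 12, as 27 bases 5′ to 3′ on the gene's strand, with capitals for the word or its reverse complement. They are printed in order of mean FPKM to show the word in its surroundings.
Ctsd: gcccgcgtctCACGTGAcccgttgagg
Ctsa: atgcagatgcTCACGTGaccagagcta
Lgmn: ggaatgtctgTCACGTGgtccatttta
Lamp1: cgtgaccacaTCACGTGcggaacggag
Atp6v0d1: ctactgcggtCACGTGAgacgcggtgc
Atp6v1a: ttttttaaatCACGTGAtaggcttaac
Gaa: ttctgtgcgaTCACGTGtttgactctg
Glb1: tgcttctgagTCACGTGgcctacagag
Gla: agatctcggtCACGTGAgcaactctcg
Cln3: cgggtactgtCACGTGAcccccaacct
Mcoln1: gcgccccgctCACGTGAccgcggcgca
Naglu: aaccttcaggTCACGTGgcccgaggtc

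Lamp1, encoding an abundant lysosomal membrane protein (382 ± 18.9 FPKM), has its match at chr8:13159135-13159161, and the word starts 16 bases before the annotated start. For Ctsd the stretch is chr7:142387909-142387935 on the minus strand, and for Ctsa it is chr2:164833767-164833793 on the plus strand. A match is a run of letters and not a shown binding site.

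PU.1, which ranked sixth among the 1282 genes the table marks as transcription factors, binds purine-rich words around GGAA. One such word, GAGGAAGT, was found on either strand in 3.91% of present genes with a window and in 3.69% of all genes with one. Among identity genes it was in 2 of the 23 present genes with a window and in 1 of the 9 low ones. By list it ran from 0 of 36 myeloid transcription factor genes with a window to 4 of 20 macrophage genes of other tissues. It was in 4 of 27 genes for sensing microbes and damage and in 4 of 38 lysosomal genes. The word is a run of letters, and binding of PU.1 was not tested. Spp1, the highest secreted-protein gene of the table, holds it. No other of the 23 disease-associated or 28 cytokine genes with a window does, besides Spp1. Its window is printed whole, 5′ to 3′ on the plus strand at chr5:104434861-104435160, with the word in capitals.
Spp1: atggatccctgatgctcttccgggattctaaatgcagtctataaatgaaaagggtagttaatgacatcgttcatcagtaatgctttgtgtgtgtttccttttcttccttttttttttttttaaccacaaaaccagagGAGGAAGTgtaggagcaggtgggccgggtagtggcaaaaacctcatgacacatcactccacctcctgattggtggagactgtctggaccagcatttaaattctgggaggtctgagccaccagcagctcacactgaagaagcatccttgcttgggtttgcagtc

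Of 43 myeloid transcription factor genes with a row, some of them identity genes too, 37 were present, with a median of 13.7 FPKM. After Spi1 came Cebpb (105 ± 10.2), Jund (88.6 ± 9.29), with Junb (50.9 ± 2.75) and Irf8 also among the leading 6. Cebpb encodes a factor of inflammatory and metabolic gene control, and Jund and Junb encode AP-1 subunits. Pparg and Egr2 were below the threshold, at 0.280 ± 0.154 and 0.30 ± 0.010, and Egr1 had 2 counts in all.

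Secreted signals were uneven. Of 37 cytokine and chemokine genes with a row, 23 were present, a share near the 61.4% of all genes of the table. Their median was 10.6 FPKM. Ccl3, a chemokine for monocytes and T cells, was at 1604, 1697 and 1718 FPKM, rank 39, and Ccl4, its close relative, at 197, 228 and 203. The table gives Ccl3 and Ccl4 overlapping positions, so reads could be shared between them. Mif, a macrophage cytokine, was at 1269, 1552 and 1346 FPKM, and Grn, encoding progranulin, at 707 ± 38.5. Tgfb1, whose product maintains microglial identity in the brain, was at 133 ± 4.24. The pyrogen gene Il1b was at 1.08, 0.800 and 0.810 FPKM, on both sides of the threshold, and Il6 had 1, 2 and 2 counts. Tnf, named after its values were seen, was at 16.1, 16.7 and 18.7 FPKM. Nos2, encoding the inducible nitric oxide synthase, was at 0.50, 0.42 and 0.44 FPKM. Arg1, encoding arginase, was at 0.45, 0.45 and 0.07 FPKM, lowest in library 3. Both enzymes, often used as opposite marks of macrophage activation, were thus below 1 FPKM in every library.

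Genes for sensing microbes and damage, which include adaptors, kinases and a protease beside receptors, were present in 28 of 34 cases with a row. Their median was 6.68 FPKM. Cd14, the co-receptor for lipopolysaccharide, was at 93.7 ± 4.20, Myd88, the adaptor of most Toll-like receptors, at 51.2 ± 1.5, and Tlr13 at 36.7 ± 3.37. Sting1 (36.5 ± 0.464), Tlr7 (36.3 ± 4.70) and Irak1 (32.2 ± 1.75) were close to Tlr13. Pycard, encoding the adaptor ASC that links inflammasome sensors to caspase-1, had 1, 3 and 3 counts, or 0.0200, 0.0700 and 0.0700 FPKM. Genes on both sides of that adaptor, named after their values were seen, were present: the sensor Nlrp3 at 12.4, 11.5 and 13.8 FPKM and the protease Casp1 at 31.3, 31.3 and 31.5. Tlr5 and Tlr8 had means of 0.127 and 0.0767 FPKM.

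Of cytokine and growth factor receptors, 28 of 35 were present, with a median of 10.96 FPKM. Il2rg, the common gamma chain, led at 105 ± 3.22, and then came Csf1r, Ifnar2 (73.3 ± 3.87), Csf2ra (71.8 ± 4.99), Ifngr2 (51.4 ± 0.869) and Il10rb (49.1 ± 2.46). These encode chains of the interferon, GM-CSF and IL-10 receptor families. Flt3 and Egfr had means of 0.0600 and 0.0233 FPKM. Both ligands of CSF1R had reads, named after their values were seen: Csf1 at 39.9, 38.5 and 43.3 FPKM and Il34 at 1.29, 1.48 and 0.890.

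Interferon response genes were present in 31 of 35 cases, with a median of 21.4 FPKM. Bst2, encoding the virus-tethering protein tetherin, was at 380, 459 and 415 FPKM, and Irf7, the master factor of type I interferon induction, at 248, 310 and 263. Ifitm3 (367 ± 41.8), Ifitm2 (314 ± 33.5), Ifi27l2a (157 ± 24.99) and Isg15 (143 ± 10.1) made up the rest of the leading 6. Others of the same list were low, with Gbp2 at 0.813 ± 0.0851 and Zbp1 at 0.0667 ± 0.0635. Whether the transfection itself bears on these levels was not tested, since every library of this group went through the protocol.

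Of 24 genes of antigen presentation, 20 were present, with a median of 19.8 FPKM. B2m, H2-D1 (538, 642 and 553 FPKM) and H2-T23 (110 ± 10.3), which form class I complexes, were high, as were Psmb8 (137 ± 10.8) and Psmb10 (85.3 ± 9.35) of the immunoproteasome. H2-Q7, also a class I gene, had a mean of 0.060 FPKM. The class II chain genes H2-Ab1 and H2-Eb1 had 2 counts each over the 3 libraries, and Ciita, the class II transactivator, had a mean of 0.0233 FPKM. Cd74, encoding the invariant chain that escorts class II molecules, was at 137, 172 and 145 FPKM in the same libraries. H2-DMb1 and H2-DMa, which encode the class II peptide-loading factor and are named after their values were seen, were present at 22.1 ± 1.11 and 1.56 ± 0.121 FPKM. The class I genes form a family of near-identical members, so their single levels are uncertain.

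Among complement and Fc receptor genes, 17 of 21 were present. Fcer1g, encoding the signalling chain shared by Fc receptors, was at 1290 ± 90.1 FPKM and Fcgr3 at 231 ± 16.7. The C1q subunits, which assemble in equal numbers, were unequal in mRNA, with C1qb at 76.4, 94.1 and 78.5 FPKM, C1qc at 55.4, 68.6 and 60.6, and C1qa, named after its values were seen, at 7.44, 10.2 and 8.71. The ratio of C1qb to C1qa was 9.52 ± 0.668. C2 and Cd55 had means of 0.00667 and 0.0367 FPKM. Of genes for the phagocyte oxidase, nitric oxide and eicosanoids, 17 of 26 were present, a share near the 61.4% of all genes. The highest was Cyba, a membrane subunit of the oxidase (664 ± 90.2). Alox5ap, encoding the 5-lipoxygenase activating protein, was at 138, 149 and 144 FPKM, while Alox5, the lipoxygenase it serves, was at 0.0900, 0.140 and 0.0700.

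Of 29 iron handling genes, Ftl1 and Fth1 included, 22 were present, with a median of 10.6 FPKM. Pcbp2 (362 ± 3.88) and Pcbp1 (254 ± 2.87) encode RNA-binding proteins that also deliver iron to ferritin. Slc11a1, encoding the phagosomal metal transporter NRAMP1, was at 142, 153 and 144 FPKM, and Hmox1, the haem-degrading oxygenase, at 120, 121 and 122. Lcn2, encoding the siderophore-binding lipocalin, was at 0.620, 0.180 and 0.250 FPKM from 10, 3 and 4 counts, and its receptor gene Slc22a17 had a mean of 0.0900. Hamp, encoding the iron hormone hepcidin, had a mean of 0.0467.

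Of 32 cholesterol and lipid genes, 30 were present, with a median of 24.0 FPKM. Apoe, Fabp5 (484 ± 21.1), Fdps (428 ± 22.7), Lpl, Scd2 (253 ± 34.7) and Plin2 (102 ± 3.47) were the highest. Fdps encodes farnesyl diphosphate synthase of the mevalonate pathway, and Plin2 a lipid droplet coat protein. Among the low genes was Scd1, a fatty acid desaturase, with 4, 3 and 6 counts. Scd2, a close relative of Scd1, was at 266, 214 and 280 FPKM, lowest in library 2.

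Cell cycle genes were present without exception, in 28 of 28 S phase genes and 30 of 30 genes of G2 and mitosis. Their medians were 44.7 and 52.3 FPKM. Pcna, the replication clamp, was at 295, 293 and 290 FPKM and Ube2c, which ubiquitinates mitotic cyclins, at 359, 389 and 368. Growth control genes were present in 31 of 33 cases. Cdk4 (365 ± 11.8), Trp53 (193 ± 7.21), Ccnd3 (165 ± 10.1), Max (117 ± 2.48), Cdkn1a (101 ± 3.97) and Cdkn2a (95.7 ± 11.5) led this list. Trp53 encodes p53, Cdkn1a its target p21, and Cdkn2a the inhibitors p16 and p19ARF. Myc, a growth-promoting transcription factor gene named after its values were seen, was at 1.98, 1.66 and 1.70 FPKM. These values are those listed for the mouse gene, and RNA from the oncogenes of the immortalising retrovirus was not measured here. Tert, the catalytic subunit of telomerase, had a mean of 0.603 FPKM.

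The list of endoplasmic reticulum chaperones, which also holds stress regulators, was present in 25 of 25 members with a row, out of 26 listed. It was led by the chaperone gene Calr (753 ± 25.9), the stress-response transcription factor gene Atf4 (334 ± 16.6) and the chaperone gene Hsp90b1 (308 ± 23.2). Antioxidant genes were present in 27 of 28. Mt1 (719 ± 48.0) and Mt2 (409 ± 43.7), encoding metal-binding metallothioneins, were among the leading members with Gpx4 (504 ± 49.7) and Prdx1 (499 ± 5.81). The exception was Nqo1, a quinone reductase, at 0.200, 0.460 and 0.230 FPKM. Genes for the cytoskeleton were present in 37 of 39 cases, with Actb at 1623 ± 87.7, Vim at 1031 ± 42.1 and Pfn1 at 1015 ± 34.9, and with the smooth muscle actins Acta2 and Actg2 at 0.840 and 0.120. Purinergic receptors and ion channels were present in 21 of 28 cases, led by Clic1 (289 ± 18.4), Trpv2 (59.6 ± 0.421) and Kcnn4 (36.4 ± 2.51), with the potassium channel Kcna3 at 0.217 ± 0.210.

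**Figure D4:**
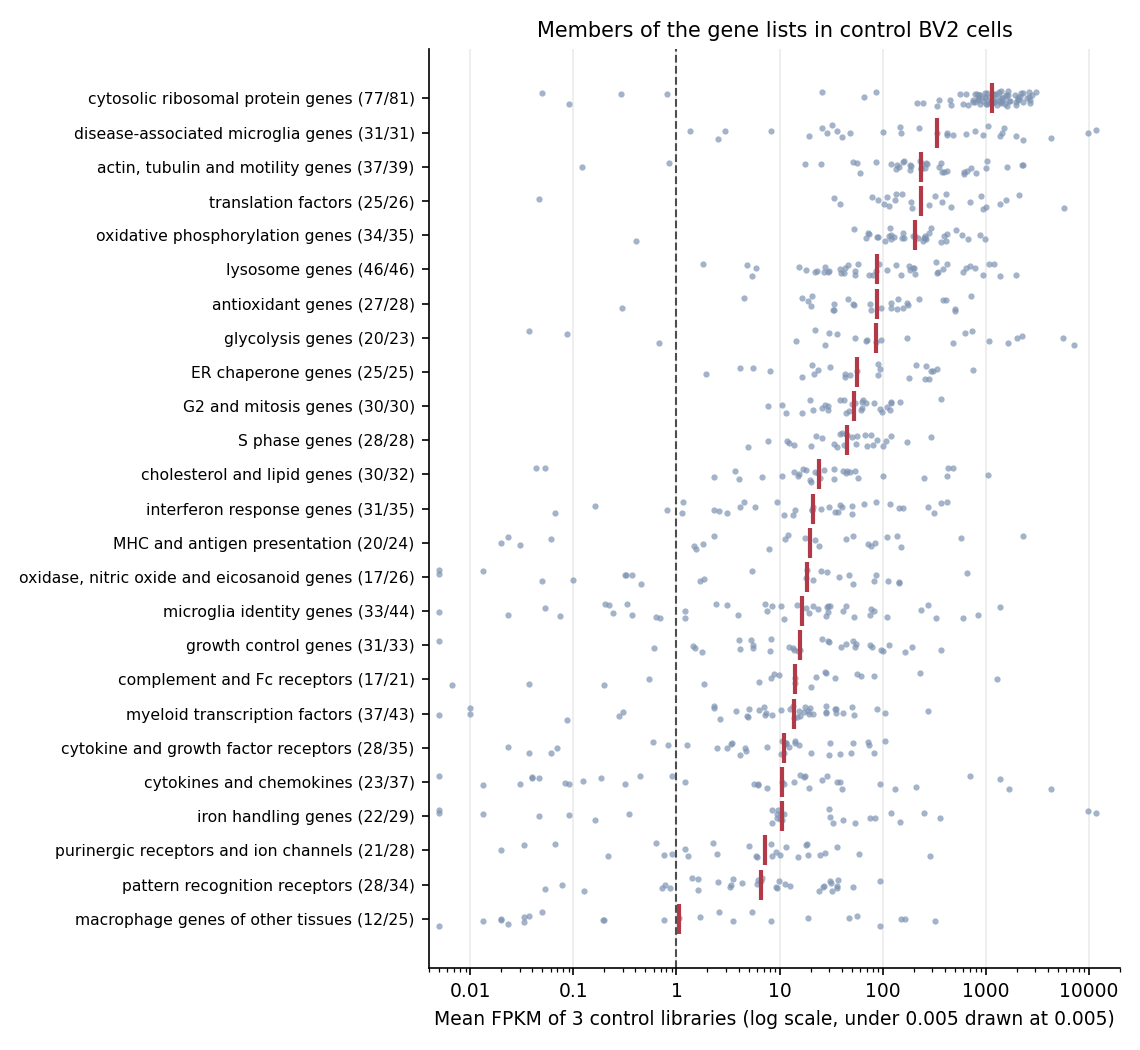
Mean FPKM over the 3 control libraries (x axis, log scale) of each member of 25 gene lists (points, spread vertically at random), with the list median as a red bar; values under 0.005 are drawn at 0.005 and brackets give members at 1 FPKM or more in every library out of those with a row. Ribosomal protein genes have the highest median (1152 FPKM) and macrophage genes of other tissues the lowest (1.05 FPKM).

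The 3 libraries were close to each other, with library 2 apart from the other 2. Across the 10236 genes with a mean of at least 1 FPKM, the coefficient of variation had a median of 7.16%. The Poisson value for counting alone, 1 over the square root of the mean count, had a median of 3.49%. Under counting alone the median coefficient from 3 or 2 libraries would lie below that value. A median near 3.49% is therefore not a sign of counting noise alone. Without library 2 the median was 3.56%, and without library 1 or 3 it was 7.87% or 6.78%. Libraries 1 and 3 were within 1.25-fold for 96.6% of these genes, libraries 1 and 2 for 89.2% and libraries 2 and 3 for 82.0%. Each pair differed by more than counting noise, with a chi-square of 3.47 per degree of freedom for libraries 1 and 3, 13.4 for 1 and 2 and 19.5 for 2 and 3, so none was a repeat deposit of another. This does not show whether they came from separate cultures. Pearson's r of log2(FPKM + 0.1) across these genes, which are not independent replicates, was 0.992 to 0.996.

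The difference of library 2 moved with transcript length. Length here is that implied by a gene's counts and FPKM, and the 7990 genes with a mean of at least 5 FPKM were split into 5 groups of 1598. In the shortest group, with a median length of 1016 bases, the median log2 deviation from the mean of the 3 libraries was -0.04, 0.10 and -0.07 in libraries 1 to 3. In the longest, with a median of 5352 bases, it was 0.04, -0.15 and 0.09. Ribosomal protein genes, with a median length of 676 bases, deviated by -0.06, 0.14 and -0.10, and oxidative phosphorylation genes, with 823 bases, by -0.03, 0.10 and -0.08. Genes of G2 and mitosis, with 2959 bases, deviated by 0.04, -0.09 and 0.04. What made the libraries differ was not tested.

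**Figure D5:**
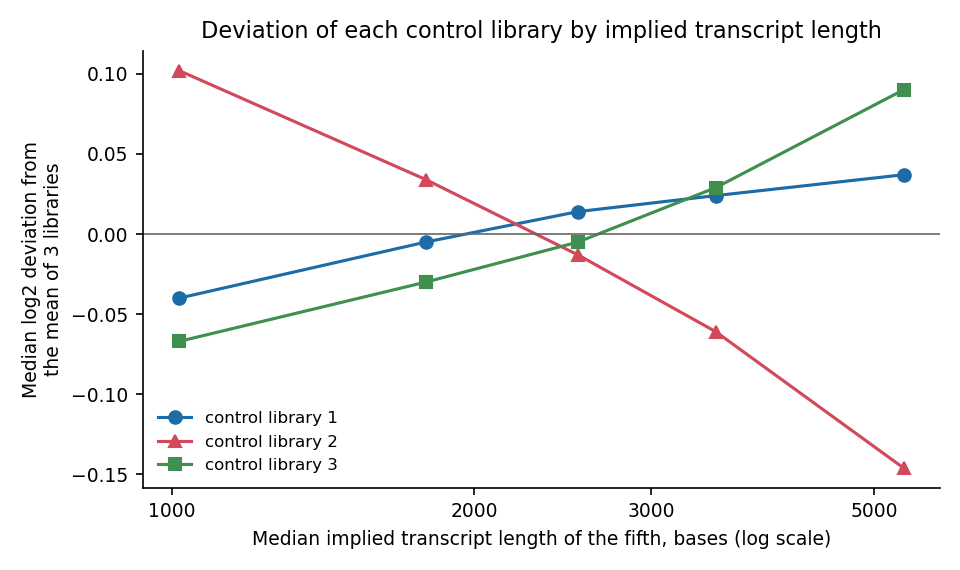
Median log2 deviation of each control library from the mean of the 3 (y axis) against median implied transcript length (x axis, bases, log scale) in 5 equal groups of genes with a mean of at least 5 FPKM. Library 2 runs from 0.10 in the shortest group to -0.15 in the longest, and libraries 1 and 3 run the other way.

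Single genes with extreme spread were ranked among the 7970 genes with a mean of at least 5 FPKM and at least 100 counts. The 10 with the highest coefficient of variation ran from 44.1% for Gm52435 to 29.2% for Atrx, a chromatin remodeller. The others were Gm52437, Hmga1b, Kdsr, H3c13, Prrc2c, Gm42049, Gm52632 and Bcl2l2. Prrc2c, with a long transcript, was at 23.8, 16.5 and 32.3 FPKM, and Atrx at 7.67, 5.52 and 10.1, both lowest in library 2. The short histone gene H3c13 went the other way, at 14.8, 23 and 12.5 FPKM. Hmga1b, a near-copy of Hmga1, was at 3.92, 8.09 and 5.58 FPKM against 965, 1062 and 979 for Hmga1. Of the 100 genes with the highest spread, 82 were lowest in library 2, and their median implied length was 4540 bases against 2539 for all ranked genes. The 10 with the lowest spread included Sumo3, Arhgef39, Myo18a, Dhrs13, Ogdh, Mettl6, Mdm1, Exoc3 and Dnaaf5, and all 10 had a coefficient of 0.216% or less. Ogdh, a subunit of the 2-oxoglutarate dehydrogenase complex of the citric acid cycle, was at 76.4, 76.2 and 76.3 FPKM. Its coefficient of variation was 0.141%, where counting alone gives 1.22% for its mean count.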

How the data were processed

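Estimated counts were deposited for each gene as the authors made them, without rounding (37.3% of nonzero control values were not whole within 1e-09). FPKM and TPM values were made by the authors, per the file headers. Per the submitters' processing notes the tools included Bowtie2 (2.4.5) and DESeq2 (1.34.0), with the build mm39. How reads were counted, on which strand and annotation, and which gene length lies behind FPKM is not given in the sources used here. Levels of genes with near-identical copies, overlapping genes or antisense partners are therefore uncertain. FPKM is relative to all mapped fragments of a library.

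Levels were taken from FPKM, precision from the counts (20007603 to 20224707 per library), and TPM was used as an alternative. Nothing was compared with other groups and no test was run. Samples were grouped by title. Means, SDs and coefficients of variation used numpy 2.4.6 and pandas 2.3.3 in Python 3.11.15. TMM factors (edgeR 4.0.16) and size factors (DESeq2 1.42.0, R 4.3.3), used as alternatives, came from counts rounded to whole numbers. Deviations were log2((FPKM + 0.1)/(mean + 0.1)) over members with a mean of at least 1 FPKM. The Poisson interval and the floor of 3 counts cover counting error only. The measures were checked on simulated data.

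The members and the gene lists were chosen with earlier results of these data known. Genes were named by rule: the 4 markers and their neighbours, every identity gene, the 30 highest genes, up to 6 high and 3 low members (under 1 FPKM) per list, cell type markers at 1 FPKM or more, and the 10 highest and lowest coefficients of variation. Single genes outside it are given as named after their values were seen, as are list members named at counts of 0, the lowest members of all-present lists and the relatives set beside a named gene. Windows were searched for 5 words after other words had been tried. Some items that these rules name are not reported here.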

Additional observations from a re-analysis of the deposited data

How the results depend on the processing

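No paired analysis was possible because the description rests on 1 group and no test was run. The number of genes present (10070) ran from 7721 to 11232 over FPKM minimums of 0.5 and 5, a minimum of 10 counts and TPM, and from 10110 to 10154 when a library was left out. The share of the 100 highest genes was 33.9% with FPKM and with TPM, 33.3 to 34.2% when a library was left out, and 22.8% with CPM, which is not corrected for length. Of the 30 highest genes, 30 were kept with TPM, 29 with the median over libraries or with any library left out, 16 with CPM and 15 when ribosomal protein genes were removed. The median coefficient of variation of 7.16% was 7.29% after TMM factors, 7.15% for counts divided by DESeq2 size factors, 5.92% for genes with a mean of at least 10 FPKM and 10.4% for all genes above 0. It ran from 3.56% without library 2 to 7.87% without library 1. The 33 identity genes present became 35, 28 and 37 with minimums of 0.5 FPKM, 5 FPKM and 10 counts, and were 33 without any single library. Of 75 list deviations, 16 moved by more than their spread over libraries after TMM factors and 0 with a pseudocount of 1. Depth limits the precision of genes with few counts, such as Sall1 and Ldhb.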

Other observations

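The table's own annotation gave a wider view of function. Of 306 KEGG pathways with at least 20 genes, the highest medians were those of the ribosome (643 FPKM, 131 of 137 genes present), the proteasome (141 FPKM, 42 of 44), oxidative phosphorylation (134 FPKM, 104 of 110), Parkinson disease (124 FPKM, 105 of 120) and the citrate cycle (89.3 FPKM, 28 of 30). All genes were present in protein export (25 of 25), DNA replication (35 of 35) and nucleotide excision repair (43 of 43). The ferroptosis pathway, which holds the ferritin genes, took 4.21 ± 0.193% of all FPKM. The lowest medians included nicotine addiction (0.0117 FPKM, 2 of 22), taste transduction (0.0217 FPKM, 5 of 38) and steroid hormone biosynthesis (0.0300 FPKM, 10 of 41). Complement and coagulation had 24 of 72 genes present.

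Of 1282 genes the table marks as transcription factors, 735 were present (57.3%, against 61.4% of all genes), with a median of 6.85 FPKM against 14.8 for all present genes. The highest, chosen after their values were seen, were the chromatin protein gene Hmga1 (1002 ± 52.3), the cold-shock domain genes Ybx1 (607 ± 8.81) and Ybx3 (450.0 ± 3.58), Nme2 (434 ± 32.7) and Atf4 (334 ± 16.6), ahead of Spi1 and Irf7.

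The other words searched in promoter windows differed in share between present genes and the rest of the table. GGGCGG, the core of a GC box, was in 70.1% of present and 43.6% of other genes with a window, and CCGGAAGT, an ETS word, in 10.6% and 1.99%. TATAAA was in 8.23% of present and 14.4% of other genes. The words were read on both strands, and these are counts of letters with no test.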
